A study of Mus musculus with 12 samples.

Results

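The T helper 1 (Th1) genes followed here are a set of 8: the cytokine gene Ifng, the transcription factor genes Tbx21, Eomes and Stat4, and the receptor genes Il12rb2, Il18r1, Il18rap and Cxcr3. They were taken by symbol, 8 of 24421 genes in the deposited tables. The set was chosen with earlier results of these data known, so its counts against all genes are descriptions. RNA was sequenced from regulatory T cells (Tregs) sorted from NOD mice, a strain that develops autoimmune diabetes, at 6.8 weeks of age. The mice were retrogenic, which means that their T cells grew from transduced bone marrow precursors, and carried cells with either of a pair of insulin-specific T cell receptors (TCRs), 4-8 and 12-4.4m1. In the series' design text 4-8 stands for high and 12-4.4m1 for low affinity.

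The 4 groups had 3 libraries each, 12 in all: islet Tregs with the 4-8 TCR, islet Tregs with the 12-4.4m1 TCR, spleen Tregs with the 4-8 TCR and spleen Tregs with the 12-4.4m1 TCR. All shared the strain, the age and the sorted cell type. The labels give neither the number of mice behind a library nor whether replicate libraries stem from different animals. P-values therefore measure the spread between libraries, which may be technical.

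Th1 cells are the T helper cells that make interferon gamma, the product of Ifng. IL-12 acts through a receptor that contains the Il12rb2 chain and activates STAT4, and T-bet, the product of Tbx21, drives Ifng, Cxcr3 and Il12rb2. IL-18, which acts through a receptor of the Il18r1 and Il18rap chains, adds to the interferon gamma response. Some Tregs take up T-bet and CXCR3 in inflamed tissue, and in pancreatic islets interferon gamma is one of the cytokines linked to loss of beta cells.

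Of the 8 genes, 4 passed the test in at least 1 comparison: Ifng, Tbx21, Il12rb2 and Il18rap. Their promoters are shown because these genes carry the results. Each line gives 250 bases before and 50 after the annotated start from RefSeq on GRCm38.p6, on the strand of the gene. Capitals mark matches, on either strand, to the T-box motif GTGTGA, the STAT motif TTCNNNGAA, the AP-1 motif TGANTCA or the Runx motif TGTGGT.
Ifng: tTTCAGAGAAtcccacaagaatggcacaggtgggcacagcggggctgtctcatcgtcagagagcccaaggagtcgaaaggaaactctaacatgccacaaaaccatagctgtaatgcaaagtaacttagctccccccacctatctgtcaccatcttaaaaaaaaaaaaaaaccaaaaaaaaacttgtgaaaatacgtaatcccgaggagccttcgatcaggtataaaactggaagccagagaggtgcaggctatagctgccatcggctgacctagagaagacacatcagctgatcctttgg
Tbx21: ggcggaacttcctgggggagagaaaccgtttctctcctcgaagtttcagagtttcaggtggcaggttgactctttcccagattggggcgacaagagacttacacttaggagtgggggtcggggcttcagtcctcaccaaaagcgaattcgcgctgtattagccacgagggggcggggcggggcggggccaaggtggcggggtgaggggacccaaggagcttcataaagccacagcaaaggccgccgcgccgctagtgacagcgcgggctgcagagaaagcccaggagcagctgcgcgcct
Il12rb2: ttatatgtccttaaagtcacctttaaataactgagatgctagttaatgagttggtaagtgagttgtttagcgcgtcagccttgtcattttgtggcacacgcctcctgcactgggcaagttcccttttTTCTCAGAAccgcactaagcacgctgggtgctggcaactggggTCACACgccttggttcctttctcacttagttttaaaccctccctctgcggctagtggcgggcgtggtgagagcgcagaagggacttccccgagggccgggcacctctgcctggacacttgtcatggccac
Il18rap: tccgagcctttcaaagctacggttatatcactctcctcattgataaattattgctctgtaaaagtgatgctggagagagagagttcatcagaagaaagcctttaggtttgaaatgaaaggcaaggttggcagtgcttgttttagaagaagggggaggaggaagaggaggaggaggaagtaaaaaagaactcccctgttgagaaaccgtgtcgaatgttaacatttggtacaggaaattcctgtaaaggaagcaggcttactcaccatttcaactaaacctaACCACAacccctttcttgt

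The Ifng window (chr10:118440796-118441095, plus strand) held a STAT match 249 bases before the start. The Il12rb2 window (chr6:67376139-67376438, minus strand) held a STAT match 123 bases before the start and a T-box match 80 bases before it. The Il18rap window (chr1:40515112-40515411, plus strand) held a Runx match 31 bases after the start, and the Tbx21 window (chr11:97115282-97115581, minus strand) held no match. Among all 32544 promoters of this length, the T-box letters were in 14.3%, the STAT letters in 8.33%, the AP-1 letters in 7.79% and the Runx letters in 16.7%. All 8 genes had a promoter in the table, 11 in all: 2 genes held the T-box letters, 3 the STAT letters, 3 the Runx letters and 0 the AP-1 letters. A match is a description of the letters only.

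The 8 protein-coding genes have these positions in the GENCODE annotation of GRCm38. Ifng is at chr10:118441046-118445892 (plus strand), Tbx21 at chr11:97098071-97115331 (minus), Il12rb2 at chr6:67291318-67376188 (minus) and Cxcr3 at chrX:101731535-101734269 (minus). Il18r1 (chr1:40465552-40500854) and Il18rap (chr1:40515362-40551705) are neighbours on the plus strand, 14507 bases apart. Stat4 (chr1:51987148-52107189, plus) is on that chromosome too, and Eomes is at chr9:118478212-118486132 (plus).

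Deposited tables for 4 comparisons were used: 4-8 against 12-4.4m1 in islets, the same in spleen, and islets against spleen for each TCR. Their values are regularised log2 counts (rlog), which shrink the differences of low genes, so a log2 difference of rlog values understates the change of a low gene. The tables were normalised separately, so levels are compared within a table only. The TCR and tissue comparisons share libraries, so these are not independent. Genes with the authors' mean normalised count of at least 10 were tested with limma, and a gene passed at a Benjamini-Hochberg adjusted p of 0.05 over all genes tested. Il12rb2 fell below 10 in the tissue table of 12-4.4m1, with a mean normalised count of 9.83, and was not tested there. The other genes were at or above 10 in all tables.

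Some library labels need care. A 4-8 column of the islet TCR table carries a number that matches no title, so it is called the unnumbered 4-8 library. For replicate 2 in spleen, the label text of 4-8 names the islet and spleen table of 12-4.4m1, and that of 12-4.4m1 names the 4-8 table. The column headers place both with their own titles, and results were also computed without them. The sums of mean normalised counts over genes ran between 899112 and 1316677 in the 4 tables, and the read depth of a library is unknown. Foxp3, the lineage factor of Tregs, averaged 9.15 ± 0.20 rlog units in 4-8 and 9.15 ± 0.17 in 12-4.4m1 islet Tregs (SD, n = 3 each). In tissues it averaged 9.72 ± 0.18 in islets and 9.78 ± 0.026 in spleen for 4-8, and 9.24 ± 0.17 in islets and 9.15 ± 0.20 in spleen for 12-4.4m1. The CD8 T cell markers Cd8a and Cd8b1 were below a mean normalised count of 10 in every table, with Cd8a at 0 in 2 of them.

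Per transcript length, the authors' FPKM (fragments scaled to transcript length and library size) show which genes were abundant, with 1 value per group and so no spread behind the order. In 4-8 islet Tregs Ifng led at 193 FPKM, before Cxcr3 at 117, Stat4 at 69.9, Il18r1 at 54.9, Tbx21 at 38.5, Il12rb2 at 24.6, Il18rap at 15.1 and Eomes at 5.91 FPKM. In 12-4.4m1 islet Tregs Cxcr3 led at 195 FPKM, and Il18r1 at 79.2, Stat4 at 71.6 and Ifng at 54.1 FPKM followed. Tbx21 there had 29.8, Il18rap 11.7, Eomes 5.32 and Il12rb2 4.57 FPKM. Ifng was first of the 8 in 4-8 islet Tregs and the fourth in 12-4.4m1 islet Tregs.

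In spleen Cxcr3 led with both TCRs. For 4-8 it had 182 FPKM, before Stat4 at 58.2, Il18r1 at 36.6, Ifng at 21.4, Eomes at 16.2, Tbx21 at 9.36, Il12rb2 at 7.65 and Il18rap at 6.03 FPKM. For 12-4.4m1 Cxcr3 had 158 FPKM, before Il18r1 at 63.0, Stat4 at 54.9, Il18rap at 11.9, Eomes at 9.02, Ifng at 7.20, Tbx21 at 4.65 and Il12rb2 at 1.23 FPKM. Ifng was the fourth gene in 4-8 spleen Tregs and the sixth in 12-4.4m1 spleen Tregs.

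**Figure D1:**
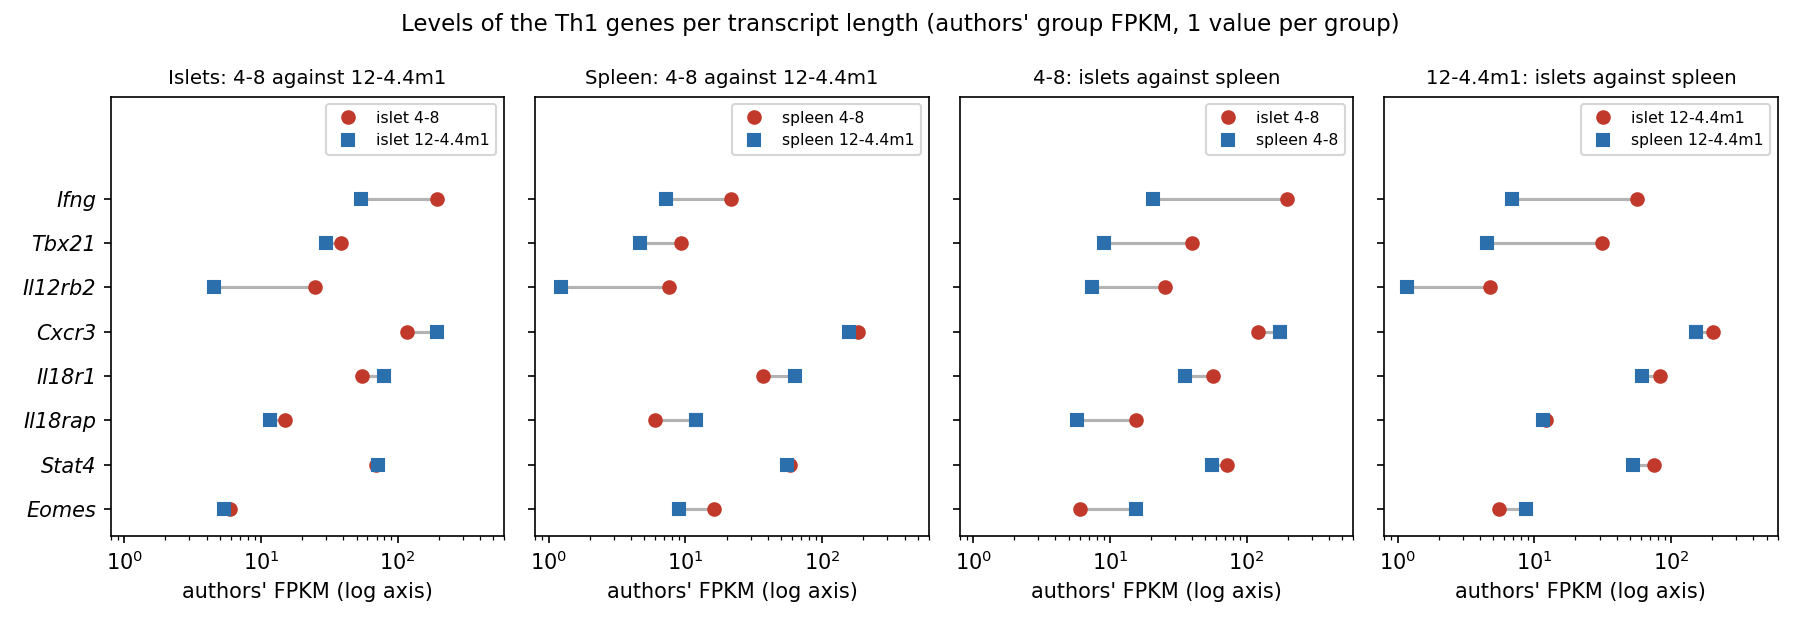
The authors' FPKM of the 8 genes in each group, 1 value per group with no error. Ifng had 193 FPKM in 4-8 islet Tregs and 54.1 FPKM in 12-4.4m1 islet Tregs.

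The first comparison asked how islet Tregs of the 2 TCRs differ. Ifng and Il12rb2 rose in 4-8 relative to 12-4.4m1 islet Tregs, and the other 6 genes did not pass the test. Of 8212 genes tested, 0.256% were called higher and 0.11% lower. Groups without overlap were seen for 4 of the 8 genes, against 11.9% of all genes.

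Ifng had 6.95 rlog units in replicate 1, 7.59 in replicate 2 and 7.04 in the unnumbered library of 4-8 islet Tregs, against 6.42, 5.92 and 5.88 in 12-4.4m1 replicates 1 to 3. All 4-8 libraries were above all 12-4.4m1 libraries. The means were 7.19 ± 0.35 and 6.07 ± 0.30 (SD, n = 3 each), a log2 difference of 1.12 ± 0.21 (SE). Limma gave adjusted p = 0.00651 and a 95% interval of 0.69 to 1.55. The difference is 2.17-fold on the shrunken rlog scale, and the authors' FPKM ratio of 4-8 over 12-4.4m1 was 3.56. The call was lost without 12-4.4m1 replicate 2, with adjusted p = 0.149 at a difference of 1.04.

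Il12rb2, the signalling chain of the IL-12 receptor, had 5.41, 6.05 and 5.68 rlog units in 4-8 replicate 1, replicate 2 and the unnumbered library, against 4.70, 4.81 and 4.60 in 12-4.4m1 replicates 1 to 3. The groups did not overlap. The means of 5.72 ± 0.32 and 4.71 ± 0.10 differed by 1.01 ± 0.20 on the log2 scale, with limma adjusted p = 0.00958. The call was lost without 12-4.4m1 replicate 1 (adjusted p = 0.102), without 12-4.4m1 replicate 2 (0.0598) and without 4-8 replicate 2 (0.0734).

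Among the factors, Tbx21 ran between 5.97 and 6.72 rlog units in 4-8 and between 6.05 and 6.47 in 12-4.4m1 islet Tregs, a difference of 0.20 ± 0.21 with an interval of -0.23 to 0.63. Stat4 differed by -0.095 ± 0.19 and Eomes, a T-box factor related to T-bet, by 0.016 ± 0.20. All 3 overlapped between the TCRs. The chemokine receptor gene Cxcr3 had 7.51, 7.49 and 7.32 in 4-8 libraries and 8.19, 7.59 and 8.06 in 12-4.4m1 libraries, so every 4-8 library was lower, but the difference of -0.50 ± 0.20 had limma adjusted p = 0.525. Il18r1 was likewise lower without overlap, by -0.54 ± 0.21, with adjusted p = 0.508. Il18rap differed by -0.21 ± 0.22 and overlapped. The authors' FPKM of Il18rap ran the other way, with 15.1 in 4-8 and 11.7 in 12-4.4m1 islet Tregs.

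**Figure D2:**
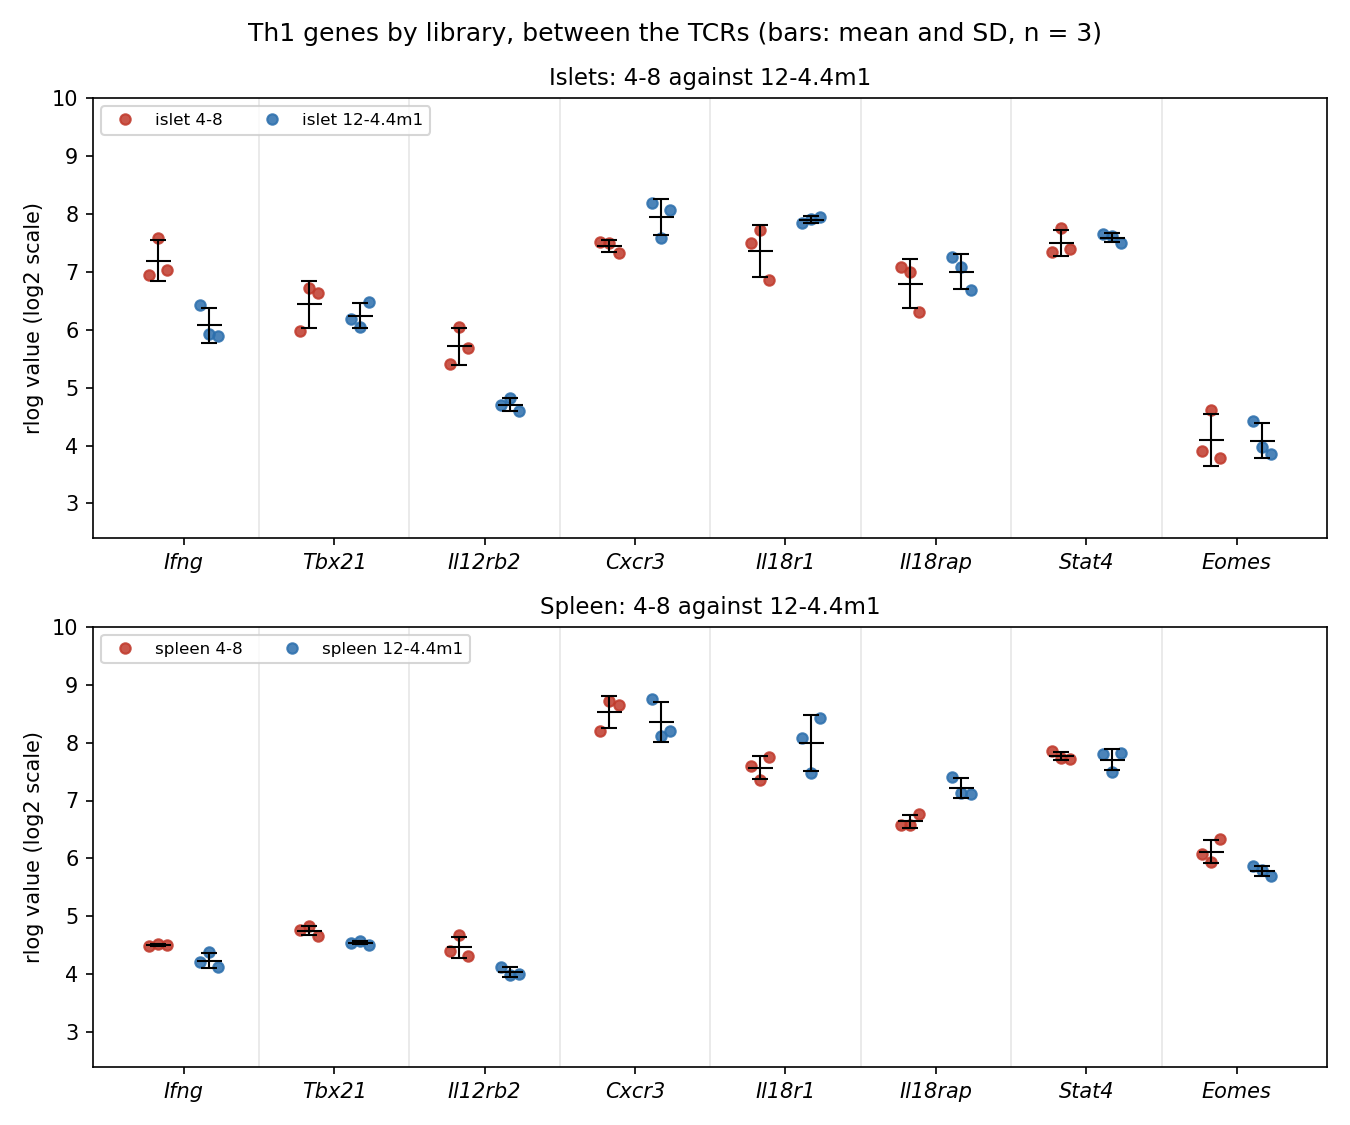
Rlog value of each of the 8 genes in every library of 4-8 and 12-4.4m1 Tregs, in islets and in spleen, with the mean and SD of each group (n = 3). In islets the 4-8 libraries of Ifng sit between 6.95 and 7.59, all above those of 12-4.4m1.

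In spleen 1 of the 8 genes passed. Il18rap, the accessory chain of the IL-18 receptor, fell in 4-8 relative to 12-4.4m1 spleen Tregs. Of 9108 genes tested, 0.209% were called higher and 0.22% lower. Groups without overlap were seen for 5 of the 8 genes, against 13.3% of all genes.

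Il18rap had 6.58, 6.58 and 6.77 rlog units in 4-8 replicates 1 to 3, against 7.41, 7.12 and 7.11 in 12-4.4m1 replicates 1 to 3. Every 4-8 library was lower. The means were 6.64 ± 0.11 and 7.22 ± 0.17, a log2 difference of -0.57 ± 0.13 with limma adjusted p = 0.0396. This call held in only 1 of the 6 fits that left out a library, that without 12-4.4m1 replicate 3. The others gave adjusted p = 0.134 without 12-4.4m1 replicate 1, 0.0916 without 12-4.4m1 replicate 2, 0.157 without 4-8 replicate 1, 0.168 without 4-8 replicate 2 and 0.0990 without 4-8 replicate 3. Without spleen replicate 2 of both TCRs it was 0.293.

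Ifng had 4.49, 4.53 and 4.51 rlog units in 4-8 replicates 1 to 3, against 4.21, 4.38 and 4.12 in 12-4.4m1 replicates 1 to 3. The groups did not overlap, and the difference of 0.27 ± 0.10 had limma adjusted p = 0.439. Il12rb2 had 4.40, 4.67 and 4.32 against 4.13, 3.98 and 4.01, also without overlap, and its difference of 0.42 ± 0.11 had adjusted p = 0.0959. Tbx21 differed by 0.20 ± 0.11 (adjusted p = 0.678) and Eomes by 0.33 ± 0.13 (0.454), both higher in every 4-8 library. Cxcr3, Il18r1 and Stat4 overlapped, with differences of 0.17, -0.43 and 0.060.

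The islet and spleen differences between TCRs were 1.12 and 0.27 for Ifng, 1.01 and 0.42 for Il12rb2, and -0.21 and -0.57 for Il18rap. Mean normalised counts in islets and spleen were 120 and 20.1 for Ifng, and 46.4 and 19.7 for Il12rb2. Rlog therefore shrinks the spleen differences of these genes more. The authors' FPKM ratios between TCRs in islets and spleen were 3.56 and 2.97 for Ifng, and 5.39 and 6.24 for Il12rb2. For Il18rap these ratios were 1.29 and 0.505. Whether the islet difference is larger than the spleen difference was not tested, since the 2 tables were normalised separately.

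Islets were then set against spleen for the 4-8 TCR. Ifng, Tbx21 and Il12rb2 rose in islets, and the other 5 genes did not pass. Of 8981 genes tested, 5.14% were called higher and 2.84% lower. Groups without overlap were seen for 5 of the 8 genes, against 27.4% of all genes.

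Ifng had 7.33, 7.98 and 7.41 rlog units in islet replicates 1 to 3, against 5.59, 5.55 and 5.51 in spleen replicates 1 to 3. All islet libraries were above all spleen libraries. The means were 7.57 ± 0.35 and 5.55 ± 0.039, a log2 difference of 2.02 ± 0.19 with limma adjusted p = 1.16e-06. This is 4.07-fold on the shrunken rlog scale, and the authors' FPKM ratio of islets over spleen was 9.64. Tbx21 had 6.19, 6.97 and 6.89 in islets and 5.50, 5.54 and 5.28 in spleen. It did not overlap, and the difference of 1.24 ± 0.21 had adjusted p = 0.000844. Il12rb2 had 6.07, 6.78 and 6.38 in islets and 5.35, 5.69 and 5.15 in spleen, without overlap, a difference of 1.01 ± 0.21 with adjusted p = 0.00520. Ifng, Tbx21 and Il12rb2 passed in all 14 alternatives. These are not all distinct. The fit without spleen replicate 2 of both TCRs leaves out only that 4-8 library here. A term for title style (titles written with Treg or with R) acts here like leaving out islet replicate 2.

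Eomes ran against them, with 4.83, 5.82 and 4.71 in islet replicates 1 to 3 and 5.85, 5.68 and 6.15 in spleen. Islet replicate 2 lay within the spleen range. The difference of -0.77 ± 0.25 had limma adjusted p = 0.0651, and without islet replicate 2 it was -1.12 with adjusted p = 0.000877. Il18rap had 7.44, 7.32 and 6.61 in islets and 6.43, 6.45 and 6.65 in spleen, where islet replicate 3 lay within the spleen range. Its difference of 0.61 ± 0.20 had adjusted p = 0.0707, and without islet replicate 3 it was 0.87 with adjusted p = 0.00220. For Il18r1 the difference was 0.30 ± 0.20 (adjusted p = 0.408), and without islet replicate 3 it was 0.55 with adjusted p = 0.0490. Stat4 (0.24, adjusted p = 0.383) and Cxcr3 (-0.39, adjusted p = 0.158) did not overlap, though the nearest libraries were 7.84 in islets and 7.83 in spleen for Stat4, and 8.06 in both for Cxcr3.

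For the 12-4.4m1 TCR, Ifng and Tbx21 rose in islets relative to spleen. The other 5 genes tested did not pass. Of 8438 genes tested, 4.63% were called higher and 2.18% lower. Groups without overlap were seen for 3 of the 7 genes tested, against 24.1% of all genes.

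Ifng had 5.53, 5.08 and 5.05 rlog units in islet replicates 1 to 3, against 4.08, 4.32 and 3.93 in spleen replicates 1 to 3. Each islet library was above each spleen library. The means were 5.22 ± 0.27 and 4.11 ± 0.20, a log2 difference of 1.11 ± 0.20 with limma adjusted p = 0.000713. Tbx21 had 5.68, 5.57 and 6.01 in islets and 4.54, 4.54 and 4.53 in spleen. The difference of 1.22 ± 0.19 had limma adjusted p = 0.000131. Both genes passed in every alternative that kept more than 1 islet library in the difference. The fit with a term for title style, which rests on islet replicate 3, is not counted.

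Il12rb2, not tested here, had 3.36, 3.52 and 3.32 in islets and 3.15, 2.98 and 2.91 in spleen, higher in every islet library by 0.39 on average. With no filter on low genes its limma adjusted p was 0.241. Stat4 was also higher without overlap (0.41 ± 0.16, limma adjusted p = 0.135). Cxcr3 (0.29), Il18r1 (0.42), Il18rap (0.20) and Eomes (-0.28) overlapped between the tissues, with adjusted p between 0.217 and 0.571.

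**Figure D3:**
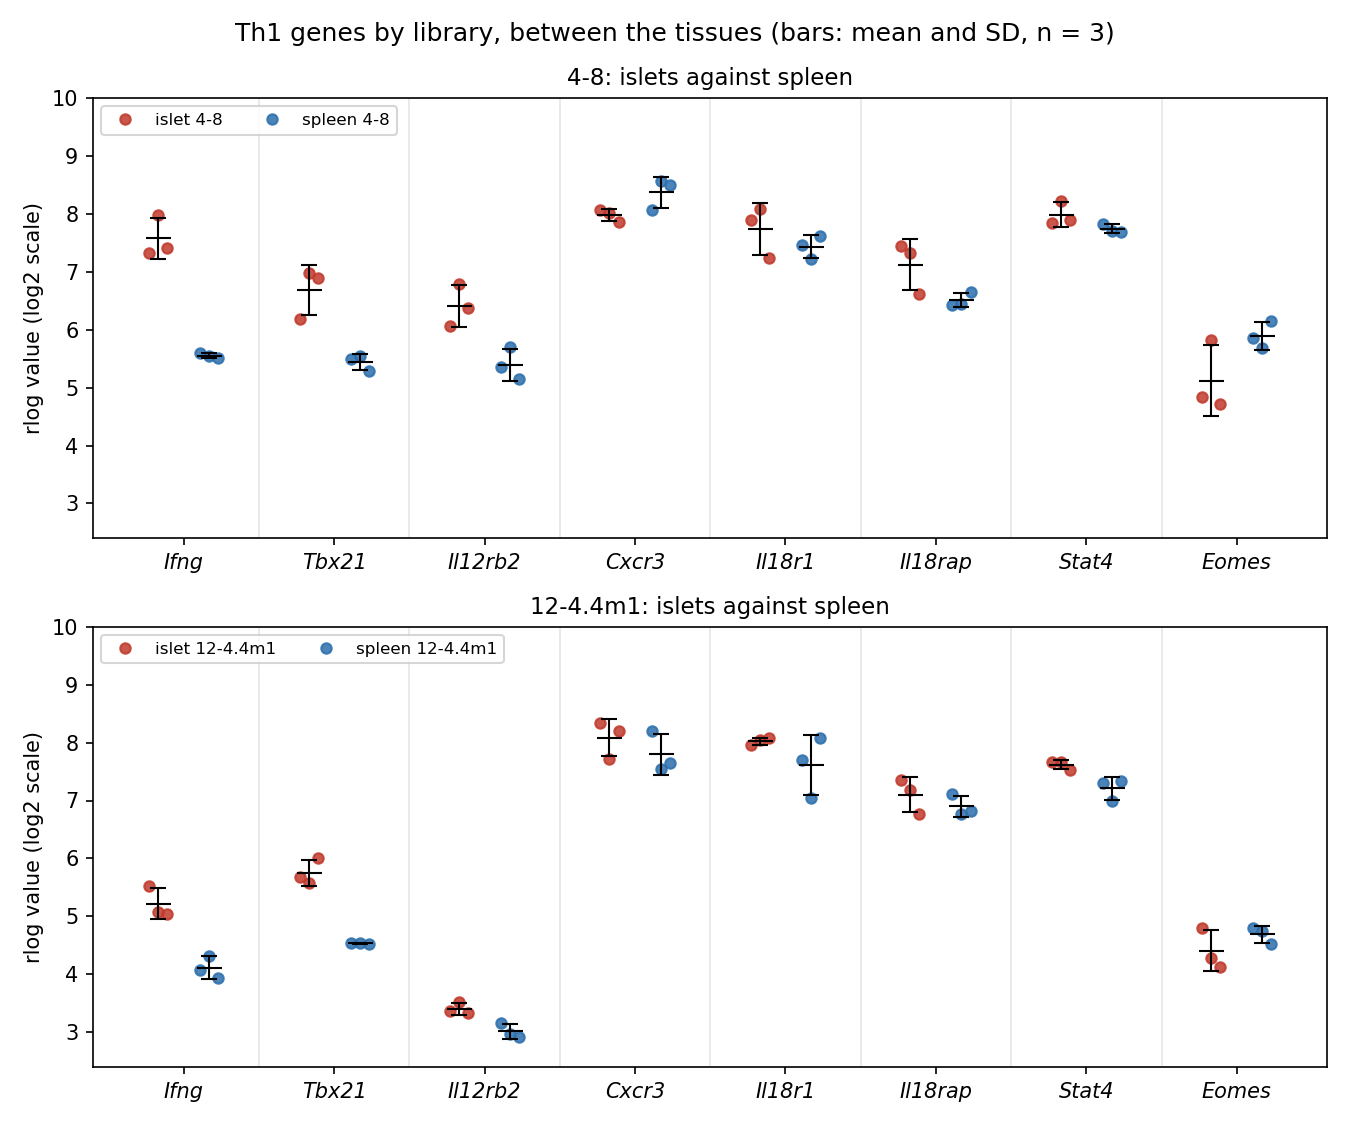
Rlog value of each of the 8 genes in every islet and spleen library, for each TCR, with the mean and SD of each group (n = 3). The islet libraries of Ifng and Tbx21 are above all spleen libraries with both TCRs.

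Tbx21 differed between tissues by 1.24 and 1.22 for 4-8 and 12-4.4m1, and Ifng by 2.02 and 1.11. Mean normalised counts were lower for 12-4.4m1, with 44.8 against 86.9 for Tbx21 and 32.3 against 151 for Ifng, so rlog shrinks those differences more. The authors' FPKM ratios of islets over spleen for 4-8 and 12-4.4m1 were 4.42 and 6.94 for Tbx21, and 9.64 and 8.18 for Ifng. Whether the tissue differences differ between TCRs was not tested. In these bulk samples, fewer cells of a type and less RNA per cell cannot be told apart.

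**Figure D4:**
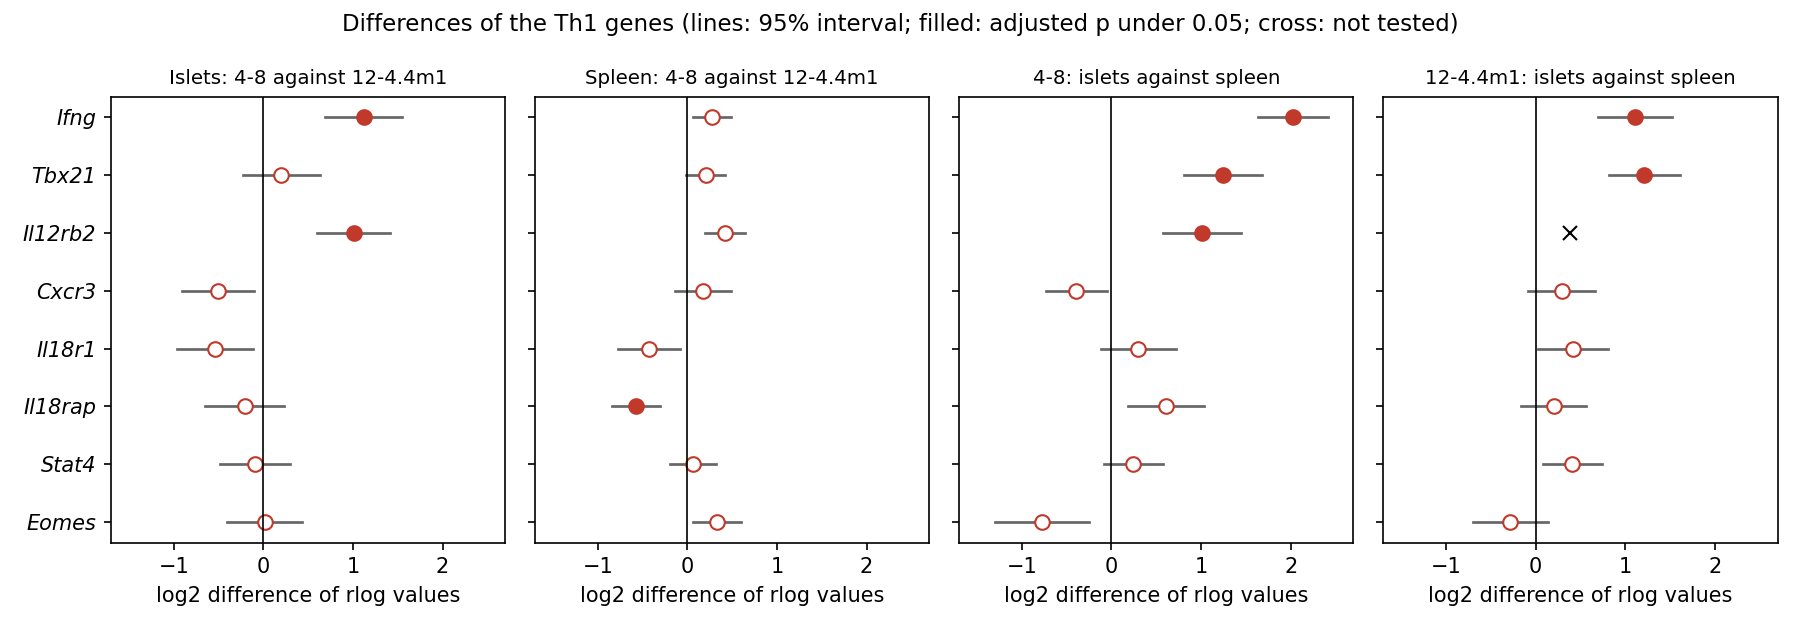
Log2 difference of each of the 8 genes in the 4 comparisons, with 95% intervals where tested. Ifng reaches 2.02 between islets and spleen for 4-8, and Il18rap falls to -0.57 between TCRs in spleen.

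Genes of the same pathways were taken from lists. These were chosen with earlier results of these data known, so the counts and medians of lists are descriptions. Over all genes tested, 0.256% were called higher and 0.11% lower between TCRs in islets, and 0.209% and 0.22% in spleen. Of the 14 other Th1 effector genes, 12 were tested in islets between TCRs, 4 rose and 8 did not pass, and the list's median difference was 0.52 against -0.0040 over all genes. The chemokine genes Ccl4 (2.36 ± 0.21, limma adjusted p = 1.86e-08), Ccl3 (1.73 ± 0.26) and Ccl5 (1.73 ± 0.26) rose, and so did the granule gene Nkg7 (1.87 ± 0.23). In spleen 5 of 12 rose, Ccl5 (1.17 ± 0.15), Gzmb (0.98 ± 0.14), Nkg7 (1.11 ± 0.19), Fasl (0.66 ± 0.13) and Ccl4 (0.78 ± 0.17). Fasl was lost without 4-8 replicate 3 (adjusted p = 0.183), and Ccl4, named after its value was seen, passed in 1 of 6 fits without a library. With robust estimation of the variance prior, Ccl5 in islets (adjusted p = 0.130) and Nkg7 (0.573) and Ccl4 (0.182) in spleen did not pass.

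Between tissues, 5 of 12 effector genes rose in 4-8 islets, the chemokine receptor gene Cxcr6 (1.87 ± 0.22), Ccl4 (1.75 ± 0.16), Nkg7 (1.20 ± 0.17), Ccl3 (1.46 ± 0.29) and Havcr2 (0.77 ± 0.19), which encodes TIM-3 and was named after its value was seen. Havcr2 was lost without any 1 of the 3 spleen libraries. For 12-4.4m1 only Cxcr6 passed, of 11 (1.44 ± 0.24). Over all genes tested, 5.14% were called higher in islets for 4-8 and 4.63% for 12-4.4m1.

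Of 15 IL-12 and IL-18 signalling genes, 0 passed limma between TCRs, of 11 tested in islets (1 at an unadjusted p under 0.05) and of 12 in spleen (3 at that p). The authors' deposited tables, DESeq2 and Cuffdiff, also called 0 of them. Stat3 and the receptor gene Il6st rose in islets with both TCRs, by 0.66 ± 0.13 and 0.99 ± 0.17 for 4-8 and by 0.94 ± 0.14 and 0.98 ± 0.20 for 12-4.4m1. Of 16 partners and regulators of T-bet and Ifng, 13 were tested in each table. Between TCRs 0 passed limma, with 0 in islets and 6 in spleen at an unadjusted p under 0.05. The authors' deposited tables called 0 in islets, and in spleen 0 by DESeq2 and 2 by Cuffdiff. In islets relative to spleen 5 rose with each TCR, against 5.14% of all genes for 4-8 and 4.63% for 12-4.4m1. For 4-8 the 5 genes higher in islets than in spleen were Bhlhe40 (1.66 ± 0.16), Nfil3 (1.96 ± 0.22), Irf4 (1.25 ± 0.16), Prdm1 (0.88 ± 0.17) and Id2 (0.46 ± 0.14). For 12-4.4m1 the 5 were Bhlhe40 (1.83 ± 0.17), Nfil3 (1.47 ± 0.22), Ikzf3 (0.87 ± 0.15), Irf4 (0.91 ± 0.18) and Prdm1 (0.75 ± 0.16). Id2 for 4-8 and Prdm1 for 12-4.4m1 were named after their values were seen, and Id2 passed in 1 of 6 fits without a library.

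Interferon gamma response genes did not follow Ifng in one direction. Of 22 listed, Cxcl10 fell between TCRs in islets (-0.95 ± 0.19, limma adjusted p = 0.0133), and it was lost without 12-4.4m1 replicate 1 or 2, 4-8 replicate 2 or the unnumbered 4-8 library. The authors' deposited DESeq2 and Cuffdiff tables called 0 of the 18 tested genes of this list there. In spleen 0 of 19 passed limma, 4 had an unadjusted p under 0.05, and the authors' deposited DESeq2 and Cuffdiff tables called 0. In 4-8 islets relative to spleen Ifngr1 (0.75 ± 0.15) and Irf8 (0.76 ± 0.17) rose, while the interferon-induced GTPase genes Gbp4 (-0.78 ± 0.17) and Ifi47 (-0.79 ± 0.16) fell. For 12-4.4m1 Irf8 (0.87 ± 0.19), Igtp (0.80 ± 0.14) and Psmb8 (0.59 ± 0.14) rose. Of all genes tested, 5.14% rose and 2.84% fell for 4-8, and 4.63% and 2.18% for 12-4.4m1. Irf8 for 4-8 was lost without spleen replicate 3, and Gbp4, Ifi47 and, for 12-4.4m1, Irf8 and Psmb8 without spleen replicate 2.

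Among 12 factors of other T helper and resting states, Rora fell between TCRs in spleen (-1.03 ± 0.13). In 4-8 islets relative to spleen Ahr (1.51 ± 0.17) and Maf (0.46 ± 0.14) rose and Id3 (-1.42 ± 0.20) and Klf2 (-0.76 ± 0.20) fell. Bcl6 rose for 12-4.4m1 (0.75 ± 0.20) and passed in 1 of 6 fits without a library, Maf in 2 of 6 and Klf2 in 3 of 6. Of 9 cytokines of other states, Il10 rose in islets between TCRs (1.33 ± 0.29, groups overlapping, 2 of 6 fits) and between tissues, by 3.04 ± 0.29 for 4-8 and 1.57 ± 0.26 for 12-4.4m1. Between TCRs Il10 was lost with robust estimation of the variance prior (limma adjusted p = 0.660) and with a minimum mean normalised count of 50 (0.0674). Between 12-4.4m1 tissues the authors' DESeq2 (adjusted p = 0.508) and Cuffdiff (q = 0.0681) did not call it, though both did in the other comparisons named.

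**Figure D5:**
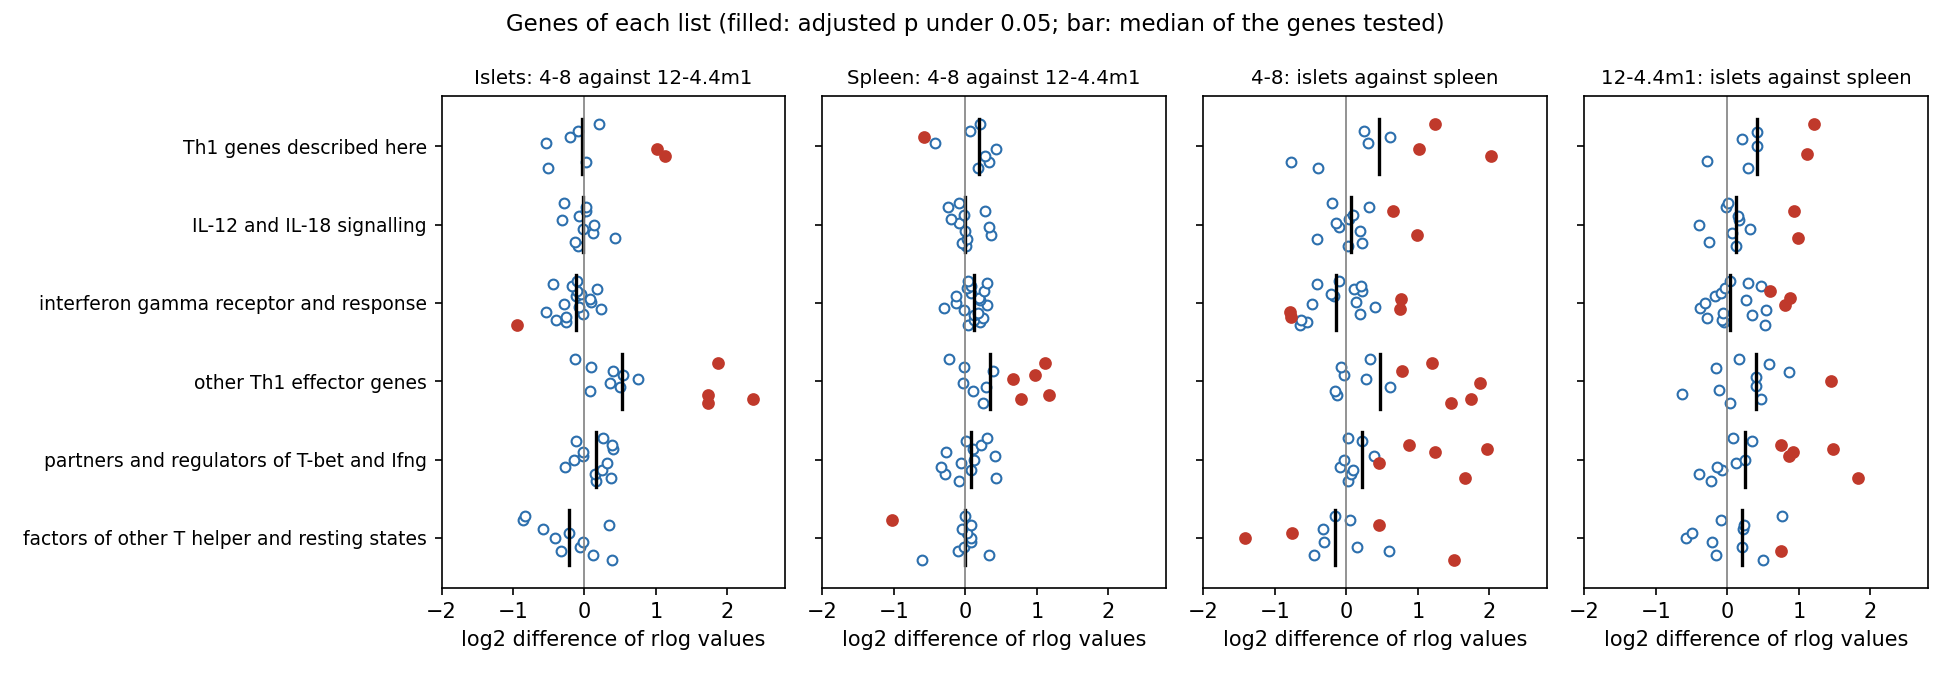
Log2 difference of rlog values (x axis) of every tested gene of each list, in the 4 comparisons, with filled points for an adjusted p under 0.05 and a bar at the list's median. In 4-8 islets relative to spleen 5 of 12 effector genes and 5 of 13 regulators rose, against 5.14% of all genes.

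Markers of other cells moved with some of these results, and their part in them was not tested. The summed level of the 6 NK cell and ILC1 markers (sum of 2 to the power of rlog) was 17.6 to 24.0 in 4-8 and 15.0 to 16.0 in 12-4.4m1 islet Tregs, with Ncr1 at 0 and 5 of 6 below a mean normalised count of 10. Klrd1, the 1 tested there, did not overlap and had an unadjusted p under 0.05 but did not pass limma. Its FPKM were 30.2 for 4-8 and 3.30 for 12-4.4m1 (Cuffdiff q = 0.375), and those of Klre1 were 12.8 and 0. In the 4-8 tissue table the sum was 25.3 to 37.6 in islets and 19.6 to 21.1 in spleen, and Klrd1 rose (0.96 ± 0.23, limma adjusted p = 0.0139). Cuffdiff called Klre1 there (q = 0.00100, 13.2 FPKM in islets and 0 in spleen), while Tyrobp, Klrb1c and Ncr1 had lower FPKM in islets. The 7 pancreas acinar markers summed to 67.5 to 121 in islets and 43.9 to 49.6 in spleen for 4-8, and to 115 to 151 and 49.7 to 54.7 for 12-4.4m1, with Prss1 at 0. Between TCRs in islets they summed to 116 to 169 for 4-8 and 165 to 208 for 12-4.4m1. Of the 4 acinar markers tested between tissues with each TCR, 2 were called higher in islets for 4-8 and 3 for 12-4.4m1. Over all genes these shares were 5.14% and 4.63%. In spleen the NK markers summed to 11.6 to 12.1 for 4-8 and 11.8 to 12.6 for 12-4.4m1. For 12-4.4m1 they summed to 6.001 to 6.39 in islets and 6.48 to 6.96 in spleen. Of the B cell, myeloid and islet endocrine markers, 0 passed limma in any table, where at most 1, 2 and 1 of them were tested. The endocrine gene Gcg had an unadjusted p under 0.05 between 12-4.4m1 tissues and between TCRs in spleen, as did 1 myeloid marker in the latter. Between 12-4.4m1 tissues the authors' DESeq2 called Gcg (adjusted p = 0.00602), with 1.14 FPKM in islets and 26.2 in spleen. Cuffdiff did not (q = 0.311). Cd4 rose in islets by 0.71 ± 0.15 for 4-8 and 0.86 ± 0.14 for 12-4.4m1. All 3 T cell markers (Cd3e, Cd3g and Cd4) were without overlap between tissues with each TCR, and 2 passed for 4-8 and 1 for 12-4.4m1. Groups without overlap made up 27.4% and 24.1% of all genes. The 3 summed to 3766 to 4429 in islets and 2769 to 3060 in spleen for 4-8, and to 2427 to 2725 and 1860 to 2022 for 12-4.4m1. Of the 6 Treg markers, 1 passed with each TCR and 5 did not, with median differences of 0.15 for 4-8 and 0.034 for 12-4.4m1. The gene that passed was Ctla4, an inhibitory receptor of Tregs, which rose in islets by 2.03 ± 0.15 for 4-8 and 2.21 ± 0.16 for 12-4.4m1.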

How the data were processed

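Sorted Treg RNA was amplified and made into Nextera XT libraries, per the labels' protocols. The submitters' processing notes name TopHat 1.0.0, Cufflinks, STAR 1.1.0, DESeq2 1.1.0 and DESeq with the builds mm10 and GRCm38, without their roles. The authors deposited, for each comparison, regularised log2 values per library, a mean normalised count per gene (a normalised signal) with DESeq2 p-values, and group FPKM with Cuffdiff q-values, per the file headers. Raw counts per library were not used here, so the read depth is unknown.

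Genes with a mean normalised count of at least 10 were fitted on the rlog values with limma 3.58.1 in R 4.3.3 (eBayes with a mean-variance trend) in each table. P-values were adjusted by Benjamini-Hochberg over all genes tested, at a threshold of 0.05. Rows of repeated symbols, 4 in each table for 2 symbols, were left out. Genes named from a list are the up to 4 called with the smallest p in a comparison, with 4 more named after their values were seen. The 8 genes and all lists were chosen with earlier results of these data known. The script was tested on simulated data. Alternatives changed the filter, the prior, the scaling, the libraries, the replicate block and the title style.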

Additional observations from a re-analysis of the deposited data

How the results depend on the processing

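Of 411 checks of the 8 genes under alternatives, 386 kept direction and side of the threshold, 11 lost the call, 6 gained one and 8 changed sign. Those of other named genes numbered 626, of which 562 kept both and 64 lost the call. Some checks repeat each other in the tissue comparisons. There, leaving out spleen replicate 2 of both TCRs removes 1 library, and for 4-8 the title style term acts like leaving out islet replicate 2. With a minimum mean normalised count of 50, the islet TCR comparison had 1 gene past the threshold in place of 2, with Il12rb2 left out by that minimum, and the 12-4.4m1 tissue comparison 0 in place of 2, with 4 of the 8 genes tested and Ifng and Tbx21 left out by that minimum. In spleen between TCRs the count was 0 without a mean-variance trend (Il18rap adjusted p = 0.0551), 0 without replicate 2 of both TCRs, and 2 with the replicate block, where Il12rb2 had limma adjusted p = 0.0436. Leaving out 1 library gave 0 to 2 in islets between TCRs, 0 to 1 in spleen, 3 to 5 for 4-8 tissues and 2 for 12-4.4m1 tissues. Changes of sign were seen between TCRs in islets for Il18rap (0.040 without the unnumbered 4-8 library, range -0.37 to 0.040 over libraries left out) and Eomes (-0.10, -0.039 and -0.24 without 12-4.4m1 replicate 3, 12-4.4m1 replicate 2 and 4-8 replicate 2, range -0.24 to 0.19). In spleen they were seen for Cxcr3 (-0.044) and Stat4 (-0.027) without replicate 2 of both TCRs, and for Stat4 without 12-4.4m1 replicate 2 (range -0.044 to 0.12). Il18rap between 12-4.4m1 tissues was -0.12 with a term for title style (sample titles written with Treg or with R). None of these had passed, and the cause was not tested. With that term, the difference between 12-4.4m1 tissues rests on islet replicate 3, the only islet library there titled with R. It was 0.86 for Cxcr6, 0.66 for Irf4 and 0.43 for Bcl6, each smaller than without the term. Between 4-8 tissues Eomes passed with the term (-1.12, limma adjusted p = 0.000850). Islet replicate 2 is the only library there titled with Treg, so this repeats the fit without it and is no separate check. Over all genes, the number called was 30 in islets between TCRs (9 to 54 under the alternatives), 39 in spleen (11 to 78), 717 for 4-8 tissues (306 to 1212) and 575 for 12-4.4m1 tissues (288 to 724).

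Same-number libraries did not all correlate above 0.1 in any table, and the reported fits have no replicate block. The correlations were 0.0748, 0.0865 and 0.120 in spleen, where each library correlated best with its own number, -0.0390 and 0.127 for the 2 numbered pairs in islets between TCRs, and between -0.118 and 0.0404 in the tissue tables. With the block, Eomes between 4-8 tissues passed (limma adjusted p = 0.0249), making 4 genes in place of 3, and Id2 (0.0882) and Maf (0.0947) were lost there. In islets between TCRs the difference rests on those 2 pairs, and Ifng (1.102, limma adjusted p = 0.00133) and Il12rb2 (0.97, adjusted p = 0.00756) passed. The pairs of Ifng were unlike, with 6.95 against 6.42 rlog units in replicate 1 and 7.59 against 5.92 in replicate 2. So few libraries inform the spread in this fit that its p-values rest largely on the variance prior. They add no support beyond the fit without the block. The rlog scale shrinks the differences of low genes such as Il12rb2 and Eomes.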

Other observations

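Likeness was measured by Euclidean distance over the 4 log2 differences, among 7715 genes at or above a mean normalised count of 10 in all tables. Predicted genes, with symbols of Gm and a digit or ending in Rik, were left out. The genes most like Ifng were Tigit (0.496), Litaf (0.635) and Hilpda (0.665), against a median distance of 2.61 over these genes. Those most like Tbx21 were Vps37b (0.139), Ccr7 (0.150) and Sh2d2a (0.212), against a median of 1.80. For Il18rap they were Itpr1 (0.159), Cd83 (0.225) and Dst (0.243), and for Eomes Ift80 (0.119), Ifit3 (0.134) and Mpnd (0.136). Among the 8 genes the closest pair was Il18r1 and Il18rap (0.525), which lie 14507 bases apart on chromosome 1. Their median distances over these genes were 0.948 and 0.972. Other genes were closer to each, with Cry1 at 0.209 from Il18r1 and Itpr1 at 0.159 from Il18rap. Ifng and Tbx21 were 1.21 apart. Il12rb2 was left out as below 10 in 1 table. These comparisons share libraries, so the distances are descriptions.

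The authors' deposited DESeq2 table gave adjusted p = 0.000222 for Ifng and 0.0114 for Il12rb2 between TCRs in islets. For islets against spleen the authors' deposited DESeq2 table gave 4.45e-19 for Ifng, 1.57e-05 for Tbx21 and 0.00285 for Il12rb2 in 4-8 Tregs, and 0.000782 for Ifng and 2.21e-05 for Tbx21 in 12-4.4m1 Tregs. In the authors' deposited table, DESeq2 gave adjusted p = 0.105 for Il18rap between TCRs in spleen, and Cuffdiff gave q = 0.0143 for Il18r1 there. For 4-8 tissues the authors' deposited Cuffdiff table gave q = 0.0277 for Il18rap and 0.0154 for Eomes, neither of which passed in limma.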
